A study of Mus musculus with 32 samples.

Results

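The genes described here are the leukocyte surface antigens that carry a cluster of differentiation (CD) name on a 2-colour mouse array. They were chosen by symbol, as every gene whose platform symbol was Cd followed by a number and optional letters, without Cd74, Cd24a and Cd81, and with Ptprc, the CD45 phosphatase, added. This gave 48 genes on 58 probes, of 9026 genes with a symbol, and 40 of them had 1 probe. By role, 12 were T cell antigens, 4 were B cell antigens, 10 were myeloid antigens, 5 were pan-leukocyte antigens and 17 were other CD-named genes. The other class includes, among others, tetraspanins, complement regulators, endothelial or stromal antigens and the CD300 family gene Cd300c2. It also holds Cd2bp2, which encodes a protein that binds the tail of CD2 and is no surface antigen.

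The series measured RNA of liver and spleen from cloned male 129/SvJ mice aged 18 to 19 weeks, in 4 groups of 4 mice. Dll1 clones, whose genotype label is Dll1 cloned, were hybridised against a pool of Dll1 heterozygotes that were not cloned. Wildtype clones were hybridised against a pool of wildtype mice that were not cloned. All cloned groups share the cloning, while the labels do not say from which donor cells or how many lines the clones came. The 4 mice of a genotype gave both organs, and each mouse and organ was measured on 2 arrays with the dyes swapped, which made 32 arrays. Dll1 encodes a ligand of Notch receptors.

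Each value is a log2 ratio, likely clone over pool as the titles order the 2 RNAs, and it is no level. Genes are therefore not ranked by abundance, and the organ labels could not be set against absolute levels of organ markers. Each pool is 1 RNA whose own spread is left out of every test, and the mice numbered 1 to 4 within a genotype are the same animals in both organs. Whether the arrays with the clone in Cy3 are already turned to the same direction is not settled by the labels. Those arrays were read as already turned. Means, medians and counts with their sign reversed, called the other or opposite dye reading, are given for the members the text describes most fully, while values of a gene in single mice hold for the first reading only. Sign, order of the cohorts and calls often differ between the readings. The names of the rows also carry a limit. They were assigned by a shift of 11 rows that was found over the whole table, at which probes of 1 gene correlated only weakly (mean r 0.0249, against at most 0.0225 at the other shifts scored), and the 12 probe pairs of the CD antigens themselves did not correlate (-0.0749), so each gene named below is named through that shift.

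CD antigens are the proteins by which leukocytes are sorted and through which they signal. On T cells the CD3 chains and CD247 carry the signal of the antigen receptor, CD4 and CD8 bind major histocompatibility complex proteins on the presenting cell, and CD28 gives the second, co-stimulatory signal. On B cells CD79B is a signalling chain of the antigen receptor, and CD22 is a lectin that damps it. The spleen is rich in both lymphocyte classes, whereas in liver most of these antigens come from resident macrophages (Kupffer cells), lymphocytes of the sinusoids and endothelium. In whole organs, a lower ratio from fewer cells of a type and one from less RNA per cell cannot be told apart.

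The spleen ratios of Ptprc, Cd96 and Cd3g are described below. Promoter sequences are shown for these 3 members, the phosphatase gene, the T and NK cell receptor gene and the CD3 chain gene. They run from 250 bases before to 50 after a listed start, 5′ to 3′ on the gene's strand, and are from RefSeq on GRCm38.p6. Of the 48 members, 33 had a promoter in that table. Capitals mark the motifs searched on both strands, the PU.1 core GAGGAA, the RUNX core TGTGGT, the RBPJ core TGGGAA and the E-box CAGCTG. These factors are known from lymphoid and myeloid genes, and RBPJ is the DNA-binding partner of Notch.
Ptprc: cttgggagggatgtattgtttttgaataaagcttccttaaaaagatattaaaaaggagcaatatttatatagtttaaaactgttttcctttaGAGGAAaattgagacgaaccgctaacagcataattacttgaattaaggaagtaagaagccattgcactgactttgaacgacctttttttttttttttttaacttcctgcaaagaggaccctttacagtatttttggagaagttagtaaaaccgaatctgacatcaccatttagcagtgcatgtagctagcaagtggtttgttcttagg
Cd96: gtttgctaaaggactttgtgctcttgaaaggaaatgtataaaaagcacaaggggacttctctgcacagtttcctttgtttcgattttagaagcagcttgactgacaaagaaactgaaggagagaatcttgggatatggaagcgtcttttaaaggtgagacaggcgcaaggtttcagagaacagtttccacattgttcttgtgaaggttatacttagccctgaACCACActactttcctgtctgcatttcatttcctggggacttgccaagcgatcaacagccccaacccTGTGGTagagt
Cd3g: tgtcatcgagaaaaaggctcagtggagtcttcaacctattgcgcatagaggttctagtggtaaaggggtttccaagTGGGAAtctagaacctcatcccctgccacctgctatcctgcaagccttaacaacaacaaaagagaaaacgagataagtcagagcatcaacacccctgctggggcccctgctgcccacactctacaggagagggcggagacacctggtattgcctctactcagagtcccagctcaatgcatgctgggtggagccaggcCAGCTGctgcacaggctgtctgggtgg
The Ptprc window, chr1:138175256-138175555 on the minus strand, is 1 of 2 starts listed for the gene and held 1 PU.1 core. The Cd96 window, chr16:46120199-46120498 on the minus strand, held 2 RUNX cores, 1 on each strand. The Cd3g window, chr9:44980382-44980681 on the minus strand, held 1 RBPJ core and 1 E-box. The PU.1 core was in 17 of 33 members (51.5%), against 28.3% of 27025 promoters, 1 per gene, and the RBPJ core in 13 of 33 (39.4%), against 25.5%. The RUNX core was in 6 of 33 members (18.2%), against 16.9%, and the E-box in 4 of 33 (12.1%), against 16.1%. A match says only that these letters stand in the window.

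As a check of the numbers behind the tests, the spread between mice was much larger in spleen than in liver. The median SD of a feature between mice was 0.398 in Dll1 spleens and 0.257 in wildtype spleens, against 0.109 in Dll1 livers and 0.0865 in wildtype livers (log2, n = 4 each). The CD antigens had median SDs of 0.289, 0.18, 0.122 and 0.0871 in the same order. Of 464 member values per group, 16 and 17 were missing in the spleens of Dll1 and wildtype clones, and 6 and 4 in the livers. One spleen array of Dll1 mouse 3 lacked 2859 of 20794 values, the most of any array. The number of arrays limits the precision.

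No CD antigen passed an adjusted p of 0.05 in any of the 4 comparisons of clones with their pool (limma, Benjamini-Hochberg over all features), a count that depends on the dye reading. When the other dye reading was used, 3 of 48 members passed in Dll1 livers, beside 802 of 16915 features. In wildtype livers 30 of 48 passed, beside 9237 of 16948 features. In Dll1 spleens 2 of 47 passed, beside 647 of 15875 features, and in wildtype spleens 0 of 47, beside 162 of 16469. Of the 30 in wildtype livers, 17 were higher and 13 lower in clones. The counts that follow are those of the first reading. In Dll1 livers none of 48 members passed, and 0% of 16915 features did. In wildtype livers none of 48 passed, beside 0.0826% of 16948 features (14, all lower in clones). In Dll1 spleens none of 47 measured members passed, beside 0% of 15875 features, and in wildtype spleens none of 47, beside 0% of 16469. At an unadjusted p under 0.05 the members numbered 3, 8, 7 and 4 in this order of groups, against 9.23%, 8.88%, 9.93% and 3.58% of features. These counts stand on 3 to 8 genes, and nothing particular to the antigens is read from them. The values below are therefore a description of ratios, and a difference that did not pass is given as values only.

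Ptprc, the CD45 phosphatase carried by nearly all leukocytes and needed for antigen receptor signalling, stood above the pool in every spleen. Its ratios were 0.74, 0.45, 0.91 and 0.81 in Dll1 spleens, against 0.33, 0.27, 0.27 and 0.25 in wildtype spleens. All 8 spleens lay above 0, and the lowest Dll1 spleen lay above the highest wildtype spleen. The means were 0.73 ± 0.20 in Dll1 spleens and 0.28 ± 0.03 in wildtype spleens (SD, n = 4 each), which is 1.65-fold and 1.21-fold where the log base is 2, and neither passed (adjusted p = 0.423 and 0.9999, limma). With the Cy3 arrays turned the means were -0.20 and 0.07. The livers lay near 0, at 0.03, 0.07, 0.08 and 0.03 in Dll1 clones, against 0.03, 0.02, -0.03 and -0.08 in wildtype clones.

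The 2 Ptprc probes differed. The first averaged 0.56 in Dll1 spleens and 0.52 in wildtype spleens, while the second averaged 0.89 and 0.03. In Dll1 mouse 3 the first probe read -0.08 and the second 1.90. The gap between the cohorts in the gene's mean thus rests on the second probe.

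The other pan-leukocyte antigens were split. Cd47, the ligand that signals to macrophages not to engulf a cell, lay below the pool in all 8 spleens on the first dye reading. It read -0.53, -0.29, -0.10 and -0.09 in Dll1 spleens, against -0.06, -0.43, -0.11 and -0.42 in wildtype spleens, and the groups overlap. Its means of -0.25 in Dll1 spleens and -0.26 in wildtype spleens did not pass (adjusted p = 0.538 and 0.9999), and on the other dye reading they were 0.07 and 0.22, above the pool. Cd52, a small glycoprotein of lymphocytes, read 0.15, 0.60, -0.10 and 0.20 in Dll1 spleens, against 0.24, 0.20, 0.27 and 0.36 in wildtype spleens. Cd48, a ligand of CD2 family receptors, read -0.39, -0.62, 0.08 and 0.58 in Dll1 spleens, against 0.21, 0.11, 0.35 and 0.36 in wildtype spleens. Both genes were above the pool in every wildtype spleen and mixed in the Dll1 spleens. Cd44, the hyaluronan receptor, averaged -0.16 over 3 measured Dll1 spleens and 0.31 over 4 wildtype spleens. It read 0.29, -0.96 and 0.18 in Dll1 mice 2, 3 and 4, against 0.34, 0.37, 0.32 and 0.19 in wildtype spleens. Mouse 3 alone thus put the Dll1 mean below 0. The other dye reading gave Cd52 means of 0.28 in Dll1 spleens and 0.17 in wildtype spleens, and Cd48 means of -0.07 and 0.003.

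**Figure D1:**
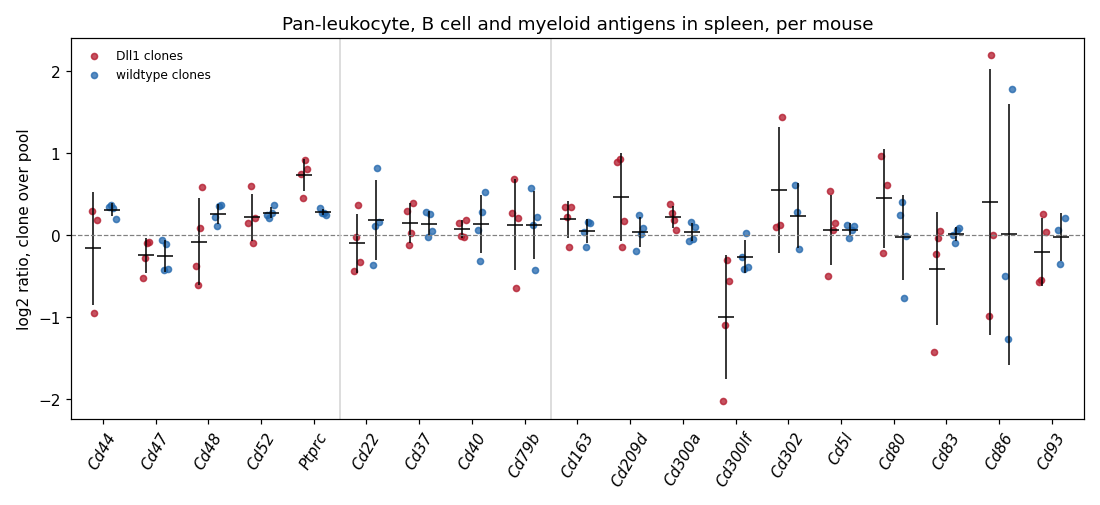
Log2 ratio of clone over pool (vertical axis) in spleen for 5 pan-leukocyte, 4 B cell and 10 myeloid antigens, split by grey lines, with Dll1 clones (red) left of wildtype clones (blue). Each point is 1 mouse, and black marks give the mean and SD. Ptprc stands at 0.45 to 0.91 in Dll1 clones, above all 4 wildtype clones, and Cd300lf reaches -2.03 in 1 Dll1 mouse, both on the first dye reading.

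The T cell antigens leaned above the pool in spleen, without a gene that passed. Their median ratio was 0.22 in Dll1 spleens, with 10 of 12 above 0 (83.3%), and 0.08 in wildtype spleens, with 8 of 11 above 0 (72.7%). Over all features the medians were 0.007 and 0.013, with 51% and 53.2% above 0. By mouse the T cell medians were 0.21, 0.24, -0.05 and 0.35 in Dll1 spleens, against 0.16, 0.09, 0.25 and 0.0025 in wildtype spleens, so the cohorts overlap and Dll1 mouse 3 alone lay below 0. With the Cy3 arrays turned the medians over genes were 0.19 in Dll1 spleens, with 9 of 12 above 0, and 0.23 in wildtype spleens, with 10 of 11 above 0.

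Cd28, the co-stimulatory receptor of T cells, had the tightest spleen values of the class in wildtype clones. It read 0.42, 0.25, 0.005 and 0.44 in Dll1 spleens, against 0.59, 0.57, 0.56 and 0.67 in wildtype spleens. All 8 were above 0, and here the Dll1 spleens were the lower group, with no overlap. The means were 0.28 ± 0.20 and 0.60 ± 0.05 (SD, n = 4 each, adjusted p = 0.493 and 0.9999). All 8 wildtype spleen arrays were above 0, where the Cy5 arrays of the clones spanned 0.72 to 0.97 and the Cy3 arrays 0.24 to 0.39. With the Cy3 arrays turned the means were 0.08 and 0.26.

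Cd96, a receptor of T and NK cells that binds nectin family ligands, differed between the cohorts in these values. It read 0.39, 0.45, 0.41 and 0.29 in Dll1 spleens, against 0.02, 0.05, 0.25 and -0.29 in wildtype spleens. The groups do not overlap, but the Dll1 mean of 0.39 rests on the Cy5 arrays, which averaged 0.78, while the Cy3 arrays averaged -0.01. Its adjusted p was 0.452 in Dll1 spleens. The other dye reading gave means of 0.39 in Dll1 spleens and 0.28 in wildtype spleens, with an overlap.

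The co-receptors of the T cell receptor differed in how steady they were. Cd4, the co-receptor of helper T cells, read 0.30, 0.17, 0.18 and 0.40 in Dll1 spleens, against 0.14, -0.15, -0.09 and -0.04 in wildtype spleens. All 4 Dll1 spleens were above 0 and above every wildtype spleen on this reading, while on the other dye reading the order turned, with means of 0.11 in Dll1 spleens and 0.29 in wildtype spleens. Cd8b1, the beta chain of CD8 on cytotoxic T cells, read 0.15, 0.78 and 0.70 in the 3 Dll1 spleens with a value (mice 1, 2 and 4), against 0.49, 0.03, -0.20 and 0.29 in wildtype spleens. The Cd8b1 groups overlap, its means on the other dye reading were 0.42 in Dll1 spleens and 0.07 in wildtype spleens, and neither gene passed in Dll1 spleens (adjusted p = 0.496 for Cd4 and 0.480 for Cd8b1).

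The receptor chains differed from one another. Cd3g, the gamma chain of CD3, read 0.20, 0.44, -0.09 and 0.48 in Dll1 spleens, against 0.20, 0.33, 0.34 and 0.43 in wildtype spleens. Cd3d, the delta chain, read 0.20, -0.34, -0.26 and -0.82 in Dll1 spleens, against -0.18, -0.004, 0.50 and 0.0025 in wildtype spleens. Cd247, the zeta chain, was measured by 4 probes and averaged 0.09 ± 0.12 in Dll1 spleens and -0.15 ± 0.21 in wildtype spleens (SD, n = 4 each). Its probes differed, with means of 0.03, 0.48, 0.003 and -0.14 in Dll1 spleens, against 0.04, 0.10, 0.02 and -0.76 in wildtype spleens. The wildtype mean below 0 rests on the last probe alone. Cd3g was thus above the pool in 7 of 8 spleens, whereas Cd3d and Cd247 lay on both sides of 0. Cd3e, the epsilon chain, spread from -1.26 to 0.58 over 3 Dll1 spleens and had only 2 wildtype values, 0.28 and 1.31, so it was not tested there. Under the opposite dye reading the Cd3g means were 0.19 in Dll1 spleens and 0.16 in wildtype spleens, and the Cd3d means were -0.63, which passed (adjusted p = 0.0437, limma), and -0.37. The Cd247 means then changed sides, to -0.14 in Dll1 spleens and 0.08 in wildtype spleens.

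Cd2, the adhesion receptor of T cells, was above the pool in 3 of 4 Dll1 spleens, with a mean of 0.19 ± 0.27, and in 4 of 4 wildtype spleens, with a mean of 0.21 ± 0.13 (SD, n = 4 each). Its means on the other dye reading were 0.46 and 0.39. Cd5, Cd6 and Cd7, which tune T cell signals, had spleen means between 0.01 and 0.26 in Dll1 clones and between -0.02 and 0.09 in wildtype clones. Each of these 3 had values on both sides of 0 in both cohorts.

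**Figure D2:**
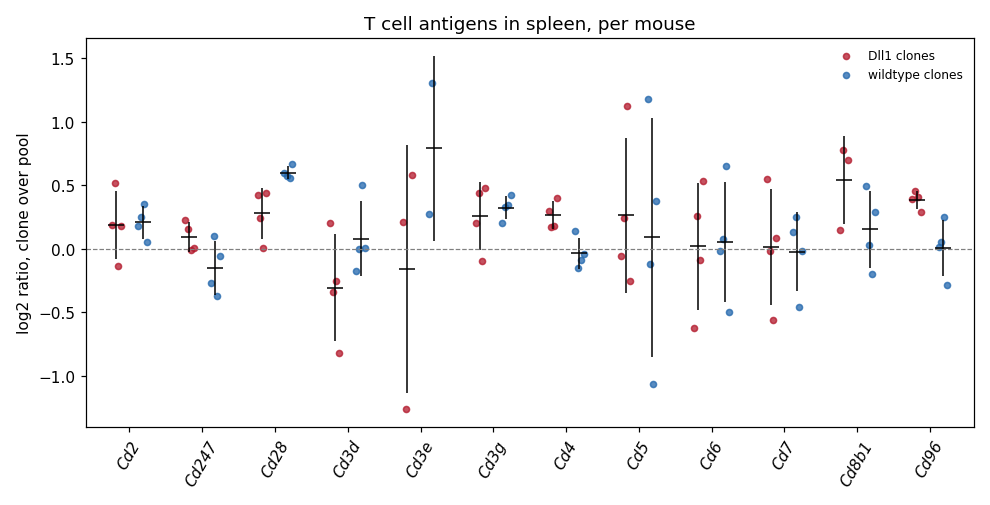
Log2 ratio of clone over pool (vertical axis) in spleen for the 12 T cell antigens, with Dll1 clones (red) left of wildtype clones (blue). Each point is 1 mouse, and black marks give the mean and SD. Cd28 is tight in wildtype clones at 0.56 to 0.67, Cd96 and Cd4 are higher in the Dll1 clones with no overlap on the first dye reading, and Cd3e and Cd5 spread widely.

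The 4 B cell antigens lay a little above the pool in spleen and did not pass. Their median was 0.10 in Dll1 spleens, with 3 of 4 above 0, and 0.13 in wildtype spleens, with 4 of 4 above 0. Cd79b, the receptor chain, read 0.26, 0.69, -0.65 and 0.20 in Dll1 spleens, against 0.58, 0.12, -0.43 and 0.22 in wildtype spleens. Cd22, the inhibitory lectin, read -0.44, -0.03, 0.37 and -0.33 in Dll1 spleens, against -0.37, 0.10, 0.82 and 0.15 in wildtype spleens. Both spread over both signs in each cohort on the first dye reading. Cd37 and Cd40, a tetraspanin of B cells and the receptor of the T cell help signal, had means of 0.14 and 0.07 in Dll1 spleens and 0.14 and 0.13 in wildtype spleens. With the Cy3 arrays turned, the medians of the 4 genes were -0.18 in Dll1 spleens and -0.15 in wildtype spleens, so their side of 0 depends on the reading of the dyes. Cd22 was then below the pool in every spleen of both cohorts, with means of -0.57 in Dll1 spleens and -0.64 in wildtype spleens. The Cd79b means were -0.23 and -0.40.

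The myeloid antigens had medians of 0.20 in Dll1 spleens and 0.02 in wildtype spleens, with 7 of 10 above 0 in each. On the other dye reading they were 0.24 and 0.20, with 8 of 10 above 0 in each, so the gap between the cohorts depends on the reading. On the first dye reading the member farthest from the pool was Cd300lf, an inhibitory lipid receptor of myeloid cells. It read -2.03, -1.10, -0.31 and -0.56 in Dll1 spleens, against -0.27, -0.42, 0.02 and -0.39 in wildtype spleens. All 4 Dll1 spleens were below the pool, and the cohorts overlap. Its Dll1 mean of -1.003 ± 0.76 (SD, n = 4) did not pass (adjusted p = 0.423), and it came from 1 of its 2 probes, since the other had no dye-swapped pair in any spleen. The other dye reading gave Cd300lf means near 0, at -0.05 in Dll1 spleens and 0.0095 in wildtype spleens. Cd93, another myeloid antigen, then stood farther from the pool, at a mean of 1.39 in Dll1 spleens, with every mouse above 0. Its Dll1 spleen mean on the first reading was -0.21.

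Cd209d, a C-type lectin of the DC-SIGN family, read 0.89, 0.92, -0.15 and 0.16 in Dll1 spleens, against -0.20, 0.24, 0.01 and 0.08 in wildtype spleens. Mice 1 and 2 made up most of the Dll1 mean of 0.46 ± 0.54, which did not pass (SD, n = 4, adjusted p = 0.493). Cd300a is, like Cd300lf, an inhibitory receptor of the CD300 family. It read 0.37, 0.27, 0.18 and 0.06 in Dll1 spleens, against -0.08, 0.16, -0.05 and 0.10 in wildtype spleens. Cd163, the haemoglobin scavenger receptor of macrophages, read 0.34, 0.22, -0.15 and 0.34 in Dll1 spleens, against 0.04, -0.15, 0.16 and 0.14 in wildtype spleens. Cd300a was above the pool in all 4 Dll1 spleens, and Cd163 in 3 of 4 spleens of each cohort. The other dye reading gave means in Dll1 and wildtype spleens of 0.35 and 0.32 for Cd209d, 0.37 and 0.26 for Cd300a, and 0.04 and 0.16 for Cd163. Cd80 and Cd86, the ligands of CD28 on presenting cells, spread widely, and Cd86 ran from -0.99 to 2.19 over 3 Dll1 spleens.

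Among the other CD-named genes, Cd63, a tetraspanin of lysosomes and granules, stood out in wildtype spleens. It read 0.17, -0.19, 0.33 and 0.25 in Dll1 spleens, against 0.36, 0.14, 1.23 and 0.61 in wildtype spleens. Its wildtype mean was 0.58 ± 0.47 (SD, n = 4, adjusted p = 0.9999), and mouse 3 gave the highest value. The class had a median of 0.01 in Dll1 spleens, with 8 of 16 above 0, and 0.06 in wildtype spleens, with 14 of 17 above 0. With the opposite dye reading Cd63 averaged -0.71 in Dll1 spleens and 0.04 in wildtype spleens, and the class medians were -0.05, with 6 of 16 above 0, and 0.04, with 9 of 17 above 0.

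Taking all members, 30 of 47 lay above 0 in Dll1 spleens (63.8%, all features 51%) and 37 of 47 in wildtype spleens (78.7%, all features 53.2%). On the other dye reading these counts were 26 of 47 and 34 of 47. Members above the pool in every mouse numbered 7 of 40 with 4 values in Dll1 spleens, beside 8.81% of features, and 10 of 41 in wildtype spleens, beside 9.25%. In wildtype spleens these were Cd2, Cd28, Cd3g, Cd44, Cd48, Cd52, Cd59b, Cd63, Cd99 and Ptprc. Members below the pool in every mouse numbered 3 in Dll1 spleens (Cd47, Cd99l2 and Cd300lf), beside 7.61% of features, and 3 in wildtype spleens (Cd47, Cd82 and Cd99l2), beside 7.03%. On the other dye reading, counted after seeing the data, 11 of 40 were above the pool in every Dll1 spleen (all features 15.4%) and 11 of 41 in every wildtype spleen (24.8%), and 5 (15.7%) and 7 (16.3%) were below it. Cd47, Cd99l2 and Cd300lf were then not among those below in Dll1 spleens, nor Cd47, Cd82 and Cd99l2 in wildtype spleens. Ptprc, Cd48, Cd52, Cd59b, Cd63 and Cd99 were not among those above in wildtype spleens, and Cd99 was below the pool in every one. Genes are not independent, and no test was made of these counts.

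Markers of other cells, of which none passed in spleen on the first dye reading, had the following ratios in the same spleens. The erythroid list had medians by mouse of -1.40, -0.88, -0.08 and -0.12 in Dll1 spleens, against -0.51, -0.85, -0.52 and -0.34 in wildtype spleens, with 9 of 10 and 8 of 10 genes below 0. The neutrophil list had medians of -0.50, -0.55, -0.12 and -0.13 in Dll1 spleens, against 0.18, -0.04, 0.01 and 0.03 in wildtype spleens, with 8 of 11 and 4 of 11 genes below 0. The pancreas list ran from -0.27 to 0.18 in Dll1 spleens and from -0.12 to 0.42 in wildtype spleens, and the endothelial list from -0.07 to 0.15 and from -0.18 to 0.09. Cd300lf was lowest in Dll1 mice 1 and 2, the same mice in which both the erythroid and the neutrophil lists were lowest. Under the opposite dye reading the erythroid medians by mouse ran from -0.06 to 0.19 in Dll1 spleens and from 0.15 to 0.28 in wildtype spleens, and the neutrophil medians from -0.32 to 0.14 and from -0.18 to 0.06. The part of these cells in the CD antigen ratios was not tested.

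In liver the ratios were small on the first dye reading. Over all members the median was 0.002 in Dll1 livers, with 24 of 48 above 0, and -0.02 in wildtype livers, with 21 of 48 above 0. By class, the T cell medians were -0.02 in both cohorts, the B cell medians 0.04 in Dll1 livers and 0.02 in wildtype livers, and the myeloid medians -0.05 and -0.09. With the Cy3 arrays turned, the myeloid medians were -0.08 in Dll1 livers and 0.19 in wildtype livers, and the T cell medians 0.06, with 10 of 12 above 0 against 4 of 12 on the first reading, and -0.01. Over all members that reading gave -0.002 in Dll1 livers, with 23 of 48 above 0, and 0.05 in wildtype livers, with 28 of 48 above 0. Single members stood farther from 0 there in wildtype livers, with means of -0.64 for Cd22, -0.335 for Cd3d, 0.42 for Cd300a and 0.42 for Cd96. In those livers 17 of 48 members passed as higher and 13 as lower, beside 9237 of 16948 features in either direction. The Cd22 mean in wildtype livers was 0.02 on the first reading. The hepatocyte list lay below 0 in all 8 livers on the first dye reading, from -0.23 to -0.07 by mouse in Dll1 clones and from -0.32 to -0.09 in wildtype clones. On the other it ran from -0.05 to 0.08 and from -0.03 to 0.14, and its part in the CD antigen ratios was not tested.

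Cd163, which in liver is carried by Kupffer cells, read -0.52, 0.06, -0.25 and -0.14 in Dll1 livers, against -0.24, -0.28, -0.41 and -0.25 in wildtype livers. It was below the pool in 3 of 4 Dll1 livers and 4 of 4 wildtype livers, and the cohorts overlap. Its means were -0.21 ± 0.24 in Dll1 livers and -0.29 ± 0.08 in wildtype livers (SD, n = 4 each, adjusted p = 0.508 and 0.370). On the other dye reading the means were -0.13 in Dll1 livers and 0.05 in wildtype livers, so the wildtype side of 0 depends on the reading.

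Among T cell genes in liver, Cd28 read -0.02, 0.13, 0.006 and -0.03 in Dll1 livers, against -0.14, -0.15, -0.22 and -0.04 in wildtype livers. All wildtype livers were below the pool and below every Dll1 liver, the reverse of the order in spleen. Cd2 was below the pool in all 4 Dll1 livers, with a mean of -0.12 ± 0.05 (SD, n = 4, adjusted p = 0.494), and averaged -0.03 ± 0.05 in wildtype livers. With the opposite dye reading the Cd28 means were 0.07 in Dll1 livers and -0.10 in wildtype livers, with an overlap, and the Cd2 means 0.10 and 0.01. Cd3d, Cd3e, Cd3g, Cd247, Cd4 and Cd8b1 had liver means between -0.06 and 0.03 in Dll1 clones and between -0.11 and 0.10 in wildtype clones, against -0.01 to 0.30 and -0.34 to 0.24 on the other dye reading.

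Members above the pool in every mouse numbered 5 of 48 in Dll1 livers, beside 5.83% of features, and 6 of 48 in wildtype livers, beside 11.7%. Those below it in every mouse numbered 2 in Dll1 livers, beside 9.92%, and 6 in wildtype livers, beside 8.99%. The other dye reading gave 8 above (all features 21.2%) and 7 below (13.3%) in Dll1 livers, and 18 above (37.5%) and 14 below (27.7%) in wildtype livers.

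Of the remaining liver genes, Cd48 read 0.02, 0.15, 0.43 and 0.14 in Dll1 livers, against -0.04, -0.28, -0.23 and 0.09 in wildtype livers, with an overlap. Cd300a read -0.03, -0.03, -0.14 and 0.11 in Dll1 livers, against -0.18, -0.17, -0.09 and -0.12 in wildtype livers, where every mouse was below the pool. In wildtype livers its Cy5 arrays averaged 0.29 and its Cy3 arrays -0.56, so the dyes opposed each other. Cd99, an adhesion protein of leukocytes and endothelium, read -0.03, 0.03, -0.06 and -0.19 in Dll1 livers, against 0.05, 0.18, 0.12 and 0.10 in wildtype livers, with no overlap. Cd59a, an inhibitor of the complement membrane attack complex, averaged -0.12 in Dll1 livers and 0.05 in wildtype livers, and Cd248, a stromal antigen (endosialin), averaged -0.12 and -0.14. The intracellular Cd2bp2 averaged -0.0004 in Dll1 livers and 0.10 in wildtype livers, with no overlap. None of these passed (adjusted p from 0.437 to 0.998). On the other dye reading Cd48 averaged -0.14 in Dll1 livers and 0.37 in wildtype livers, Cd300a 0.12 and 0.42, Cd99 -0.02 and -0.24, and Cd59a 0.11 and -0.07. The wildtype liver means of Cd48, Cd300a and Cd99 passed on that reading (adjusted p = 0.00169, 6.92e-05 and 0.00387, limma).

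**Figure D3:**
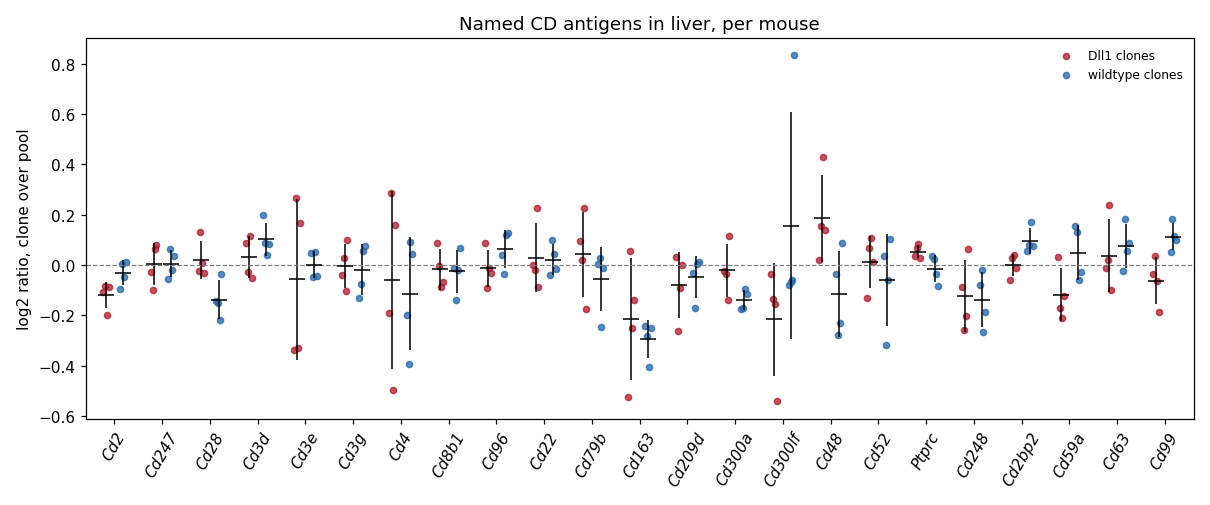
Log2 ratio of clone over pool (vertical axis) in liver for the 23 named members in the order T cell, B cell, myeloid, pan-leukocyte and other, with Dll1 clones (red) left of wildtype clones (blue). Each point is 1 mouse, and black marks give the mean and SD. On the first dye reading Cd163 lies below 0 in all but 1 mouse, and 1 wildtype value of Cd300lf stands at 0.83.

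The question whether cloned mice differed from their pool by another amount in Dll1 than in wildtype cohorts was tested as the difference of the 2 ratios. No member passed in liver (0 of 48, beside 0% of 16900 features) or in spleen (0 of 46, beside 0% of 15632). Under the opposite dye reading 26 of 48 passed in liver, 10 higher and 16 lower in Dll1 clones, beside 6961 of 16900 features. None passed in spleen. At an unadjusted p under 0.05 there were 3 members in liver, beside 4.83% of features, and 1 in spleen, beside 4.41%. Ptprc in spleen had a Dll1 minus wildtype difference of 0.45 (SE 0.17, adjusted p = 0.891). Cd96 differed by 0.38 (SE 0.17), Cd4 by 0.30 (SE 0.16), Cd28 by -0.32 (SE 0.17) and Cd300lf by -0.74 (SE 0.36), all with an adjusted p of 0.891. The other dye reading gave -0.27 for Ptprc, 0.11 for Cd96, -0.18 for Cd4, -0.18 for Cd28 and -0.06 for Cd300lf.

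The 5 members with the smallest p in liver were Cd48 at 0.30 (SE 0.11), Cd99 at -0.17 (SE 0.06), Cd59a at -0.17 (SE 0.08), Cd28 at 0.16 (SE 0.06) and Cd300a at 0.12 (SE 0.06), each with an adjusted p of 0.935. On the other dye reading Cd48, Cd99 and Cd300a turned in sign and passed, at -0.51, 0.21 and -0.31 (adjusted p = 0.00428, 0.0425 and 0.00438, limma), while Cd59a was 0.18 and Cd28 0.16. Members whose cohorts did not overlap were Cd28 above (1 of 48, beside 0.928% of features) and Cd2bp2 and Cd99 below (2 of 48, beside 2.41%) in Dll1 livers. In Dll1 spleens they were Cd4, Cd96 and Ptprc above (3 of 37, beside 1.52%) and Cd28 below (1 of 37, beside 1.64%). With the opposite dye reading 10 members lay above (all features 19.4%) and 14 below (18.6%) in Dll1 livers, and 1 above (2.42%) and 4 below (4.16%) in Dll1 spleens, of which Cd28 alone kept its place in spleen and none of the 3 in liver. Without the spleen of Dll1 mouse 3, an alternative chosen after seeing the data, the spleen differences were 0.39 for Ptprc, 0.37 for Cd96, 0.33 for Cd4 and -0.23 for Cd28, and none passed (adjusted p 0.833 to 0.841).

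The organs were compared within each cohort as the spleen ratio minus the liver ratio. In Dll1 clones 1 of 47 members, Ptprc, passed with a difference of 0.67 (SE 0.10, adjusted p = 0.0264, limma), higher in spleen in 4 of 4 mice, beside 0.0883% of 15859 features (14, of which 9, or 0.0568%, were higher in spleen and 5, or 0.0315%, lower). At an unadjusted p under 0.05 there were 11 of 47 members, beside 14.1% of features. That fit lets all groups share 1 spread, although the spread of the Dll1 spleens was 1.54 times the pooled value, against 0.371 times in Dll1 livers. In simulated data with such unequal spreads and no change, the fit made false calls in this comparison. The call did not hold with each group weighted by its own spread, an alternative chosen after seeing the data (adjusted p = 0.632), with only the Dll1 groups in the fit (0.499) or with the mouse as a replicate block (0.818). It was also lost without mouse 1 (0.0789), and with the Cy3 arrays turned the difference was -0.18.

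In wildtype clones none of 47 members passed, beside 0% of 16450 features, and 6 of 47 had an unadjusted p under 0.05, beside 6.12%. Cd28 came nearest, with a spleen minus liver difference of 0.74 (SE 0.11, adjusted p = 0.0532) that was positive in 4 of 4 mice. It passed under some other settings, from 0.000599 with arrays as units to 0.0488 with all 4 mice needed, and missed under the rest, at 0.138 to 0.307 with 1 mouse left out and 0.549 with the replicate block. Its difference stayed positive with the Cy3 arrays turned, at 0.36, and passed there (adjusted p = 0.0228, limma). On that reading 7 of 47 members passed, beside 2311 of 16450 features. Ptprc differed by 0.29 (SE 0.10), Cd3g by 0.34 (SE 0.13), Cd63 by 0.51 (SE 0.19) and Cd163 by 0.34 (SE 0.14), at adjusted p 0.595 to 0.726, and on the other dye reading by 0.04, -0.07, -0.006 and 0.12 in the same order.

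Members whose spleen values all lay above their liver values numbered 3 of 40 in Dll1 clones (Cd96, Cd151 and Ptprc), beside 4.68% of features, and 10 of 41 in wildtype clones, beside 4.82%. The 10 were Cd2, Cd28, Cd3g, Cd44, Cd48, Cd52, Cd59b, Cd163, Cd300a and Ptprc, of which 3 are T cell, 4 pan-leukocyte and 2 myeloid antigens. No member had all spleen values below its liver values in either cohort, beside 3.37% of features in Dll1 clones and 3.81% in wildtype clones. These counts share the pool of each organ among the 4 mice, and no test was made of them. In Dll1 clones Cd96 differed by 0.40 (SE 0.11), Cd8b1 by 0.56 (SE 0.18), Cd163 by 0.40 (SE 0.14) and Cd209d by 0.54 (SE 0.20), at adjusted p 0.172 to 0.262, and on the other dye reading by 0.30, 0.42, 0.17 and 0.29. That reading gave 6 members with all spleen values above (all features 7.1%) and 4 below (8.12%) in Dll1 clones, and 6 above (17.9%) and 7 below (12.9%) in wildtype clones. Of the 10 wildtype members only Cd2, Cd28 and Cd44 kept their place, while Cd48 and Cd300a were then among those below. Cd3g, Cd52, Cd59b, Cd163 and Ptprc were in neither set. Cd96, Cd151 and Ptprc were not among those above in Dll1 clones.

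Genes that act beside the antigens gave the following. Of the T cell receptor signalling list, 5 genes were on the array (Csk, Fyn, Lat, Lcp2 and Ptpn6), and none passed in any comparison on the first dye reading, with spleen medians of 0.11 in Dll1 clones and 0.16 in wildtype clones over 4 tested genes. Of the B cell receptor signalling list, 8 genes were measured, 6 of 8 above 0 in Dll1 spleens and 8 of 8 in wildtype spleens, and none passed. Ms4a1, which encodes the B cell antigen CD20 and carries no CD symbol, averaged 0.44 in Dll1 spleens and 0.71 in wildtype spleens, above the pool in 4 of 4 mice of each (adjusted p = 0.423 and 0.818). Of 11 macrophage and monocyte genes tested, 7 were above 0 in Dll1 spleens and 9 in wildtype spleens. Lyz2, the lysozyme of myeloid cells, averaged 0.31 in Dll1 spleens and 0.76 in wildtype spleens, above the pool in 4 of 4 mice of each (adjusted p = 0.480 and 0.818). On the other dye reading the spleen means were 0.21 in Dll1 clones and 0.32 in wildtype clones for Ms4a1, and 0.18 and 0.20 for Lyz2. In wildtype livers 1 of 5 T cell receptor, 6 of 8 B cell receptor and 6 of 11 macrophage genes then passed. All features passing there numbered 9237 of 16948. In Dll1 livers and Dll1 spleens 1 B cell receptor gene each passed, beside 802 of 16915 and 647 of 15875 features.

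The 2 dye orientations often gave opposite signs, and the same sign counts as agreement only if the Cy3 arrays are already turned. Over all features the orientation means correlated at -0.258 in Dll1 livers, -0.700 in wildtype livers, -0.298 in Dll1 spleens and -0.384 in wildtype spleens, as a description across features. Members with the same sign in both dyes numbered 23, 12, 19 and 15 of 48 in this order, beside 38%, 16.9%, 39.7% and 32.9% of features. Ptprc, Cd28 and Cd163 had the same sign in both dyes in Dll1 spleens, but Cd96 did not. In wildtype spleens Ptprc, Cd28, Cd3g, Cd48, Cd52 and Cd63 had the same sign in both, whereas Cd163 read 0.21 in Cy5 and -0.12 in Cy3.

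**Figure D4:**
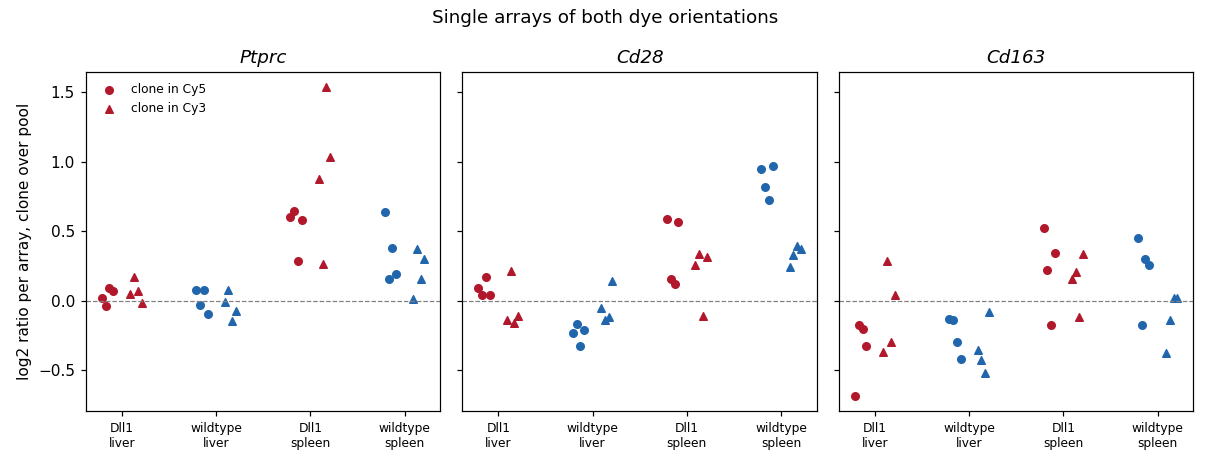
Log2 ratio of clone over pool (vertical axis) on single arrays for Ptprc, Cd28 and Cd163 in the 4 groups, with circles for arrays with the clone in Cy5 and triangles for arrays with it in Cy3, Dll1 clones in red and wildtype clones in blue. Ptprc is above 0 on every spleen array, and in wildtype spleens Cd28 spans 0.72 to 0.97 on circles and 0.24 to 0.39 on triangles.

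**Figure D5:**
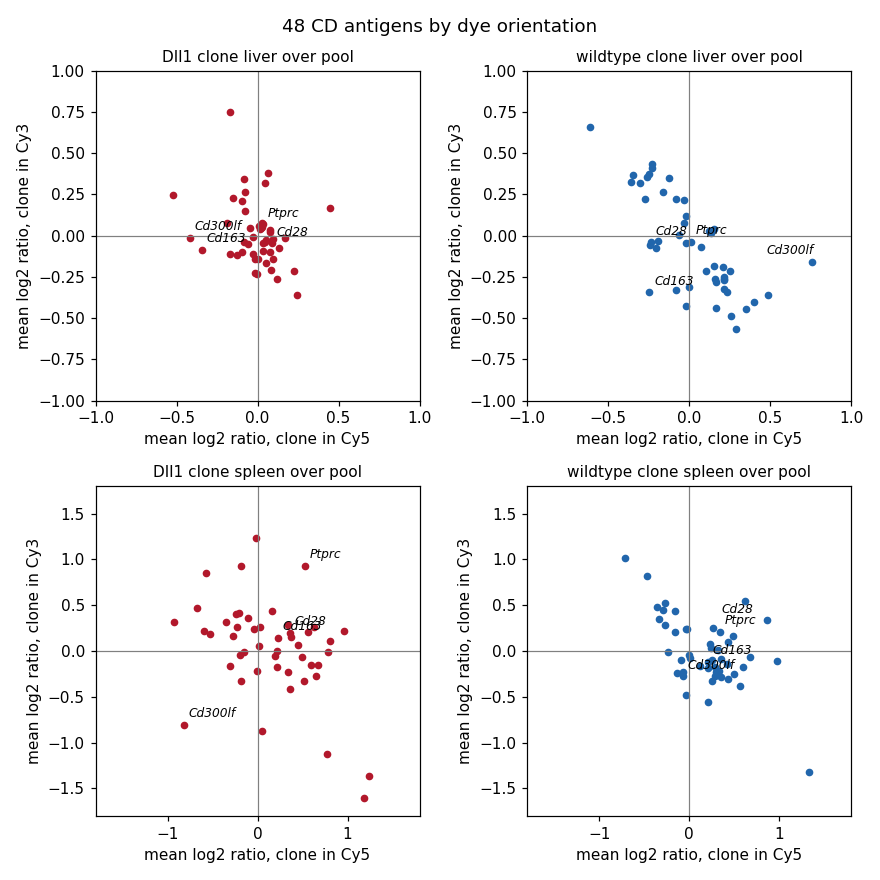
Mean log2 ratio of each of the 48 members with the clone in Cy5 (horizontal axis) and in Cy3 (vertical axis), 1 panel per group, Dll1 left of wildtype. Points at the lower left and upper right have the same sign in both dyes, which held for 12 of 48 members in wildtype livers and 23 of 48 in Dll1 livers.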

How the data were processed

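Ratios on 2-colour arrays of 16 mouse and organ samples, each on 2 dye-swapped arrays, were analysed. The deposited table holds 1 log2 ratio per probe and array, made by the authors. The table does not state its log base, which was taken as 2. Array medians lay between -0.067 and 0.079, and how the arrays were centred and which way each ratio runs stay unknown. No source names a scanner, and normalization and build were likewise not given in the sources used here. Per the labels' protocols, RNeasy columns gave the RNA and Cy3 and Cy5 were coupled indirectly. Pools are stated as 6 animals, while 4 identifiers are listed for each.

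A row was named by the platform symbol 11 places earlier, since probes of 1 gene agreed best at that shift (mean correlation 0.0249 over 4305 pairs, against 0.0047 with no shift and at most 0.0225 at the others of 2001 shifts). The members' own 12 probe pairs did not agree (-0.0749), so their names rest on the whole table. Sizes above 9 (1183 values on 883 rows, positive only with the clone in Cy5 and negative only with it in Cy3) were set to missing. Both arrays of a mouse were averaged, then probes of a gene. R 4.3.3 and limma 3.58.1 (lmFit, eBayes) tested features with at least 3 mice per group, unnamed rows included, over the 8 mice of an organ, or over all 16 values between organs, with Benjamini-Hochberg adjustment and a threshold of 0.05. The fits were tested on simulated data. Alternatives are the dye reading, missing-value rules, centring, scaling, probes, naming, fitted groups, group weights, arrays as units, the replicate block and each mouse left out. A mouse's organs are paired by animal, and their deviations correlated at 0.00162 to 0.0929 over features.

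The members and lists were chosen with earlier results of these data known. Named genes are the measured antigens of a fixed role list, and in each comparison every member past the threshold and the 5 with the smallest p. Other members given by name were picked after their values were seen.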

Additional observations from a re-analysis of the deposited data

Results flagged for a closer look

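The values of the 23 named members were screened in each group of 4 mice, 89 sets in all, for a mouse far from the other 3, which chance gives in about 1 of 20 groups. There were 2 such mice. Cd300lf read 0.83 in the liver of wildtype mouse 4, against -0.08 to -0.06 in the other 3 mice, and that value includes the second probe, which had a dye-swapped pair in this mouse alone of its group. Cd79b read -0.25 in the liver of wildtype mouse 3, against -0.01 to 0.03 in the other 3.

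Ptprc differed between the organs in Dll1 clones, with a spleen minus liver difference of 0.67 (limma, adjusted p = 0.0264). The call did not hold under several settings, whose values stand in the report and below.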

How the results depend on the processing

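The counts of CD antigens called stayed at 0 in the spleen comparison of Dll1 with wildtype under every alternative run. With the Cy3 arrays turned, 3, 30 and 2 CD antigens passed in Dll1 livers, wildtype livers and Dll1 spleens, 26 in the liver difference, and 3 and 7 between organs in Dll1 and wildtype clones. Features then numbered 802 of 16915, 9237 of 16948, 647 of 15875 and 162 of 16469 in the 4 groups. They numbered 6961 of 16900 in the liver difference, and 680 of 15859 and 2311 of 16450 between organs. The Ptprc difference reversed to -0.18. With arrays as units, mouse as random block and a dye term, features numbered 12, 55, 1 and 9 in Dll1 livers, wildtype livers, Dll1 spleens and wildtype spleens, and 54 and 36 between organs in Dll1 and wildtype clones, with 1 CD antigen (Cd28) in wildtype spleens and 1 between organs in wildtype clones. In the fits with arrays as units, the consensus correlation within a mouse was -0.323 in liver, -0.000939 in spleen and -0.13 over both organs. A value below 0 makes the error of a group mean smaller than for independent arrays, so these calls carry that limit. Keeping the constants gave 0 features in wildtype livers and 5, with 1 CD antigen, between organs in wildtype clones. Scaling the arrays gave 0 features in wildtype livers, and 1 feature and 0 CD antigens between organs in Dll1 clones. Group weights gave 27 features in wildtype livers, 0 features and 0 CD antigens between organs in Dll1 clones, and 12 and 1 in wildtype clones.

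Between organs in Dll1 clones, any array of a mouse gave 7 features, and all 4 mice needed gave 6. Only the compared groups in the fit, and the replicate block, each gave 0 features and 0 CD antigens. Each probe as a feature and names with no shift gave 0 CD antigens. Between organs in wildtype clones, centred arrays gave 2 features, each probe as a feature 6 and all 4 mice needed 3, with 1 CD antigen each, and names with no shift gave 9 features. Leaving out 1 mouse gave 0 to 2 features in Dll1 livers and 0 to 2, against 14 with all mice, in wildtype livers, 0 to 1 in Dll1 spleens, and 8 to 200 features with 0 to 1 CD antigens between organs in Dll1 clones. The Ptprc difference was 0.30 with scaled arrays (adjusted p = 0.305) and its adjusted p ran from 0.00833 to 0.818 over the alternatives. Beyond fewer values or other weights, the causes were not tested. The replicate block changed no other call. Mice of equal number in the 2 cohorts share only a number, with correlations of deviations of -0.0301 to 0.129. The ratios give no signal over background, so what it limits is not analysed here.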
